A study of Homo sapiens with 8 samples.

Results

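The aldehyde dehydrogenases that are used as markers of stem-like tumor cells, and relatives with which they are often grouped, were examined in cancer stem cells (CSCs) and in cisplatin-resistant cells derived from the lung cancer cell line H460. The 9 genes were ALDH1A1, ALDH1A2, ALDH1A3, ALDH1B1, ALDH2, ALDH3A1, ALDH3A2, ALDH3B1 and ALDH7A1. They were found on the array by name, through the RefSeq transcript accession of each noncontrol probe, without use of any measured value. All 9 had a probe, with 12 probes among the 41000 of the array, and the array carried 32642 gene names in all. Only 23958 probes had a gene symbol, and each other probe counted under its accession or annotated name. Shares of all gene names given below include such names.

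H460 is an established human non-small-cell lung cancer line, and each of the 8 dual-color arrays compared one derived population with H460 cells grown in RPMI with fetal serum. H460C cells were the CSCs, which were obtained from H460 by growth without attachment in serum-free DMEM/F12 containing glutamine, Hepes, BSA, N2 supplement, EGF and bFGF. H460R cells were the cisplatin-resistant cells, which received cisplatin at 0.5 µg/ml for 72 h and then grew without the drug in the serum-containing medium. Each population had 2 RNA samples, each sample went on 2 arrays in opposite dye orientations, and the labels name the same H460 RNA for all 8 arrays. The medium, the serum and the attachment therefore changed together in H460C, and these cannot be told apart. Each population was also on a slide of its own, so that slide and population cannot be told apart in any comparison of H460C with H460R.

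Aldehyde dehydrogenases oxidize reactive aldehydes to carboxylic acids with NAD+ or NADP+ as the acceptor. The ALDH1A enzymes make retinoic acid from retinaldehyde in the cytosol, whereas other family members clear aldehydes of alcohol metabolism, lipid peroxidation or amino acid breakdown in mitochondria and membranes. A fluorescent assay of this activity is widely used to sort stem-like cells from tumors, lung cancer among them, and ALDH1A1 and ALDH1A3 are the members most often linked to that signal.

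Promoter sequences of ALDH1A1, ALDH1A3 and ALDH3B1 are shown because, of the members with a promoter sequence, they had the largest differences between both populations. RefSeq promoters (GRCh38.p14) were found for 7 of the 9 members, with 10 listed start sites in total, and the 250 bases before the start were read on the strand of the gene. ALDH2 and ALDH3A1 had no promoter sequence and were not searched. Capitals mark GCGTG, the core of the xenobiotic response element, and CCAAT, the CCAAT box, on either strand. The first sequence is ALDH1A1 at chr9:72953054-72953303 on the minus strand, the second is ALDH1A3 at chr15:100879581-100879830 on the plus strand, and the third is the first of 2 listed start sites of ALDH3B1 at chr11:68008297-68008546 on the plus strand.
ALDH1A1: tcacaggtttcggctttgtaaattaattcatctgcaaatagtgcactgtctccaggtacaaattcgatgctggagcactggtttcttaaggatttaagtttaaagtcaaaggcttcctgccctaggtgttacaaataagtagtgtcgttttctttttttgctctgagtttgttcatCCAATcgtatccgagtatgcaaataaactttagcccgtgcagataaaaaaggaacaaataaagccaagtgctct
ALDH1A3: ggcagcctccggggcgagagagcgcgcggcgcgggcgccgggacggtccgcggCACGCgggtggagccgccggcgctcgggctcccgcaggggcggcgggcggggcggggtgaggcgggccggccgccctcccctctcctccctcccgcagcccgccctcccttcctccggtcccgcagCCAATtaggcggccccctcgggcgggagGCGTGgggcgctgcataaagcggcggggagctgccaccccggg
ALDH3B1: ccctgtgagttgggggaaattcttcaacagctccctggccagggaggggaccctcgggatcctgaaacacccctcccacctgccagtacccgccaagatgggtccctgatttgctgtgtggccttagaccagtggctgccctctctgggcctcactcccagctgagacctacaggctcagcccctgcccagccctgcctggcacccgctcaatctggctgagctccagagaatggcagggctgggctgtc
The ALDH1A1 promoter has a GC content of 38.4% and carries 1 CCAAT, 74 bases before the start. The ALDH1A3 promoter has a GC content of 82.4% and carries 1 CCAAT, 71 bases before the start, and 2 matches to GCGTG, 197 and 43 bases before it. Neither ALDH3B1 promoter held CCAAT or GCGTG. Among the 10 member promoters, 6 held CCAAT and 3 held GCGTG, whereas 32.0% and 32.2% of all 35093 promoters of this length did. The antioxidant response element, searched as TGACNNNGC, and the retinoic acid receptor half-site, searched as AGGTCA, were in 0 of the 10 member promoters and in 10.9% and 12.1% of all promoters. The searched words do not contain each other, all were read on both strands, and CCAAT was added after the sequences had been seen. A match is only a description of these letters.

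The array measures the 2 labeled samples of each comparison as the Cy3 and Cy5 intensity of a spot, and values below are the log2 of the studied cells' intensity over that of H460, after background correction and normalization within each array. A probe was tested where it was well above background, by the mark of the scanner software, in every array of at least one population. This held for 8 members and 10 of their probes, among 26014 probes and 20317 gene names. The channels of the studied cells had 25868 to 28499 probes above background by this mark and those of H460 had 22834 to 26966. No member was saturated in any of 16 channels. The difference between both RNA samples of H460C in one dye orientation did not follow that in the other (r = -0.01 across 24642 probes, against 0.27 in H460R). It was taken as hybridization noise, and both samples were counted as 1 sample. H460C means are therefore given without SD, and H460R means with the SD of 2 samples. Rank Products needs at least 2 ratios, so that the tests still took both H460C ratios as 2 samples. Every FDR given for H460C thus counts 1 sample as 2 and has no independent replicate behind it. The comparison of H460C with H460R passed 6 members both in this way and with the H460C ratios averaged to 1 sample. Because the labels name a single H460 RNA, a ratio against it leaves out the spread of H460 itself. The Rank Products p rests on the ranks of the 2 ratios among all tested probes and holds no measure of spread. The limma p rests on the difference between the 2 ratios of each population, moderated over all tested probes. In H460C that difference was taken as the hybridization noise of what was counted as 1 sample. Across 26014 probes it correlated at r = 0.206 with the same difference in H460R, and its source was not tested. In RNA from whole cultures, fewer cells of a type and less RNA per cell cannot be told apart.

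The cells were checked against markers. The epithelial keratins KRT18 and KRT19 were well above background in 16 of 16 channels and EPCAM, an epithelial adhesion molecule, in 14. PTPRC, which marks blood cells, was above it in 0 channels. PECAM1, an endothelial marker, was well above background only in the 4 H460C channels, where it was at least 1.29-fold higher than in H460. PROM1, a surface marker often used for CSCs, was above background in 0 of 16 channels and was not tested.

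ALDH1A1, the cytosolic retinaldehyde dehydrogenase most used as a marker of stem-like cells, fell in H460C. It was the 1 of 8 tested members called by Rank Products in H460C at an FDR of 0.05, where 1.06% of all gene names were called and 0.502% were called lower. In H460R 0 members were called, against 0.970% of all gene names. An unadjusted p under 0.05 by the exact rank distribution, taken only in the direction of the mean, was seen for 3 members in each population. The share of all gene names under that p was not counted, so that no excess of members can be read from it. On 3 H460C arrays the log2 ratio of ALDH1A1 was -2.00, -2.12 and -2.14, and the fourth spot carried an outlier mark and was left out (-2.26 when kept). These arrays gave a mean of -2.07, which is 4.19-fold lower than in H460 (FDR = 0.0386, Rank Products). On the 4 H460R arrays the ratio was -0.61, -0.50, -0.67 and -0.58, with a mean of -0.59 ± 0.045 (SD, n = 2) that was not called (FDR = 0.444, Rank Products). Every array of both populations was below 0, the arrays of H460C lay below all those of H460R, and both dye orientations gave nearly the same value. The difference between H460C and H460R was -1.475 ± 0.070 (SE), or 2.78-fold, with an adjusted p of 0.000126 (limma). The authors' processed table gave -2.29 to -2.13 for H460C and -0.78 to -0.56 for H460R. The call in H460C was close to its threshold, since the smallest called decrease had a log2 ratio of -1.96, and the call was lost with the log ratio that Feature Extraction computed (FDR = 0.110), with a normexp offset of 0 (FDR = 0.0612) and with median centring (FDR = 0.0647).

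Raw intensities of ALDH1A1 show what the normalization removed. On the array of H460C sample 2 in Cy3 the spot read 2309.5 units for H460C and 14067 for H460, and on the array in Cy5 it read 5365.5 and 7201.5. Thus the raw ratio was 0.164 in one orientation and 0.745 in the other. The median raw ratio of 777 tested probes of like brightness was 0.697 and 3.35 on the same arrays, so ALDH1A1 lay below its neighbours on both by a similar factor. The typical probe of this brightness was thus brighter for the studied cells when these were in Cy5, and the normalization within each array took that difference out.

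ALDH1A2 and ALDH1A3, the other cytosolic enzymes that make retinoic acid, were dim. Both ALDH1A2 probes were well above background in 0 of 16 channels, so that no ratio is given. ALDH1A3 was well above background in 15 of 16 channels, and the channel that failed was H460 on an H460R array. Its log2 ratio was 0.69, 0.34, 0.60 and 0.93 on the H460C arrays and -0.03, 0.04, 0.02 and -0.02 on the H460R arrays. All H460C arrays thus lay above all H460R arrays, which were near 0. The mean in H460C was 0.64, or 1.56-fold, and was not called (FDR = 0.595, Rank Products). In H460R it was 0.003 ± 0.0026 (SD, n = 2), and the difference of H460C minus H460R was 0.64 ± 0.093 (SE) with an adjusted p of 0.00325 (limma). It missed the threshold with the Cy5 arrays alone (adjusted p = 0.0723, limma). For this dim probe the size of the ratio depended on the background correction, and the Feature Extraction log ratio gave a mean of 1.60 in H460C and 0.099 in H460R.

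The mitochondrial enzymes ALDH2, which oxidizes acetaldehyde, and ALDH1B1, its close relative, were each measured by 2 probes. ALDH2 was at -1.57, -1.18, -1.55 and -1.21 on the H460C arrays and at -0.75, -0.51, -0.78 and -0.52 on the H460R arrays by its brighter probe. All 8 ratios were below 0 and those of H460C were the lower ones. Its mean was -1.38 in H460C, which is 2.60-fold lower than in H460 but was not called (FDR = 0.131, Rank Products), and -0.64 ± 0.014 (SD, n = 2) in H460R (FDR = 0.393). The difference was -0.74 ± 0.054 (SE), with an adjusted p of 0.000384 (limma). The dimmer probe gave -1.06 in H460C and -0.35 ± 0.061 (SD, n = 2) in H460R, with a difference of -0.71 ± 0.062 (SE) and an adjusted p of 0.000619 (limma).

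ALDH1B1 had the reverse order of both populations. Its brighter probe gave -0.11, -0.18, -0.16 and -0.33 on the H460C arrays and -0.53, -0.46, -0.52 and -0.74 on the H460R arrays. The arrays of the populations did not overlap, with those of H460R lower. The means were -0.20 in H460C and -0.56 ± 0.095 (SD, n = 2) in H460R, neither of them called (FDR = 1 and 0.477, Rank Products). H460C was above H460R by 0.37 ± 0.075 (SE), or 1.29-fold, with an adjusted p of 0.0103 (limma). The call was lost with median centring (adjusted p = 0.138) and on the Cy5 arrays alone (adjusted p = 0.0964). The other probe gave a difference of 0.31 ± 0.066 (SE) with an adjusted p of 0.0116 (limma).

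**Figure D1:**
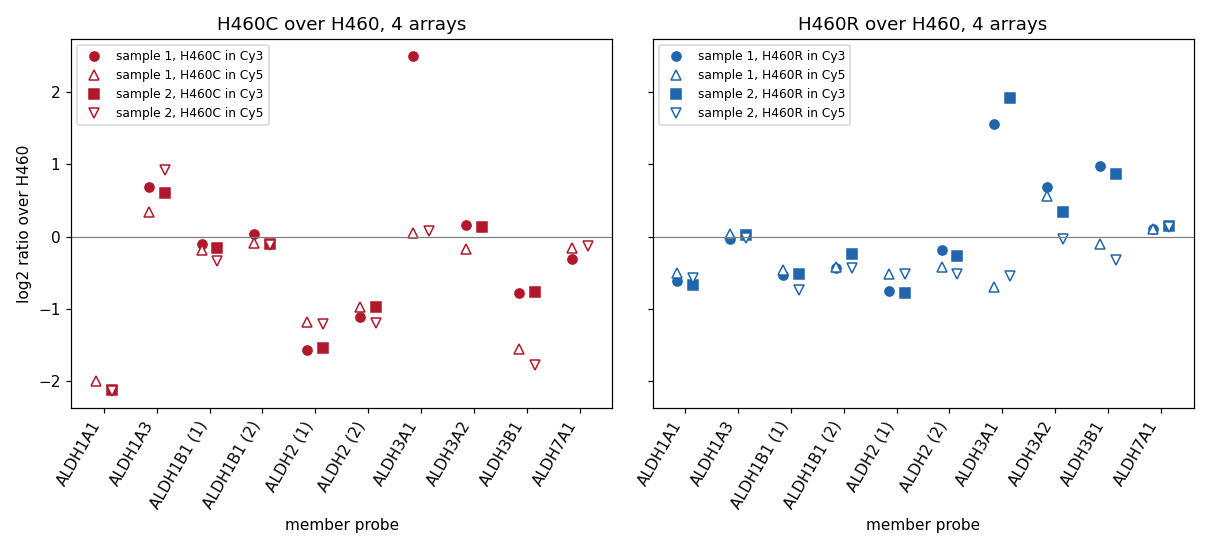
Log2 ratio over H460 (vertical axis) of each tested member probe on every array, with H460C on the left and H460R on the right. Filled symbols are arrays with the studied cells in Cy3 and open symbols those in Cy5, (1) and (2) are the brighter and the dimmer probe of a gene, and a spot with an outlier mark is not drawn. ALDH1A1 lies near -2 in H460C, and the filled and open symbols of ALDH3A1 and ALDH3B1 stand apart in both populations.

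ALDH3B1, a membrane-associated enzyme of lipid-derived aldehydes, differed by -1.57 between H460C and H460R, close to the -1.475 of ALDH1A1. The order of these 2 members was not fixed, since on the Cy5 arrays alone ALDH1A1 differed by -1.53 and ALDH3B1 by -1.45. It was at -0.78, -1.55, -0.77 and -1.77 on the H460C arrays and at 0.97, -0.10, 0.87 and -0.33 on the H460R arrays, in the order Cy3, Cy5, Cy3 and Cy5 of the studied cells. The mean was -1.22 in H460C, or 2.32-fold lower than in H460 (FDR = 0.170, Rank Products), and 0.35 ± 0.12 (SD, n = 2) in H460R (FDR = 0.870). H460C was below H460R by 2.97-fold, with a difference of -1.57 ± 0.081 (SE) and an adjusted p of 0.000159 (limma). The direction against H460 was clear only in H460C. There all 4 arrays were below 0, whereas in H460R both Cy3 arrays were above 0 and both Cy5 arrays below it. Cy3 arrays exceeded Cy5 arrays by 0.77 and 1.00 in H460C and by 1.07 and 1.19 in H460R, a dye difference larger than that of 90.4% to 96.9% of tested probes. The difference between H460C and H460R passed the threshold in each orientation alone, with an adjusted p of at most 0.0161 over all alternatives.

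The dye difference was far larger for ALDH3A1, an enzyme of lipid peroxidation aldehydes known from cornea and from resistance to cyclophosphamide. The Cy3 arrays gave 2.50 in H460C and 1.55 and 1.91 in H460R, and the Cy5 arrays gave 0.05 and 0.08 in H460C and -0.69 and -0.54 in H460R. The other H460C spot in Cy3, that of sample 2, carried an outlier mark and was left out (2.72 when kept). The Cy3 value exceeded the Cy5 value by 2.25 to 2.45, more than in at least 99.96% of tested probes, while the median probe differed by 0.25 to 0.29. Its ratio against H460 in H460R was thus positive or negative by the dye, and its mean of 0.56 ± 0.18 (SD, n = 2) was not called (FDR = 0.640, Rank Products). The mean of 0.68 in H460C was not called either (FDR = 0.568), and it combined 1.28 for the sample with both orientations and 0.08 for the sample with the Cy5 array only.

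Within one orientation, however, H460C exceeded H460R at ALDH3A1. The difference was 0.12 ± 0.38 (SE) with an adjusted p of 0.809 (limma) when the marked spot was left out. It was 0.78 (adjusted p = 0.0018, limma) when that spot was kept, 0.68 on the Cy5 arrays alone (adjusted p = 0.0068) and 0.88 on the Cy3 arrays alone with the spot kept (adjusted p = 0.0021). The authors' table, which had no gap at this spot, gave 0.76 (adjusted p = 0.00064, limma). Without H460C sample 1 the difference turned to -0.48 (adjusted p = 0.0155), since the remaining H460C value came from a single Cy5 array. The part of the dye in these values was not tested.

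ALDH3A2 and ALDH7A1 had small ratios in both populations, and each lacked a ratio on 1 H460C array because of an outlier mark. ALDH3A2, the fatty aldehyde dehydrogenase of the endoplasmic reticulum that is deficient in Sjögren-Larsson syndrome, gave 0.16, -0.17 and 0.13 on 3 H460C arrays and 0.69, 0.56, 0.35 and -0.03 on the H460R arrays. Its means were 0.06 in H460C and 0.39 ± 0.33 (SD, n = 2) in H460R, and the difference of -0.33 ± 0.16 (SE) did not pass (adjusted p = 0.138, limma), with a 95% interval from -0.73 to 0.08. It passed without H460R sample 2 at -0.56 (adjusted p = 0.0191, limma), with median centring at -0.57 (adjusted p = 0.0149), with the authors' table at -0.42 (adjusted p = 0.0423) and on the Cy3 arrays alone at -0.37 (adjusted p = 0.031). ALDH7A1, the antiquitin of lysine catabolism, gave -0.31, -0.15 and -0.13 on 3 H460C arrays and 0.10, 0.10, 0.14 and 0.13 on the H460R arrays. The arrays of the populations did not overlap, and the difference was -0.30 ± 0.063 (SE) with an adjusted p of 0.0108 (limma). It missed the threshold on the Cy5 arrays alone at -0.26 (adjusted p = 0.0529, limma). With the marked spot left out it could not be tested on the Cy3 arrays alone. It was -0.25 without H460C sample 1 and -0.29 without H460R sample 2, and median centring turned it to 0.11.

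Limma against a ratio of 0 passed 6 members in H460C and 5 in H460R, at a threshold that 71.0% and 68.9% of all gene names passed. Between H460C and H460R, ALDH1A3 and ALDH1B1 were higher in H460C and ALDH1A1, ALDH2, ALDH3B1 and ALDH7A1 were lower, or 6 of 8. Among all gene names 55.9% passed this comparison, 28.0% higher and 27.9% lower, so that the count of members was near the background. The members' median log2 ratio was -0.19 in H460C and 0.06 in H460R, and the medians of all gene names were 0.00 and 0.01.

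**Figure D2:**
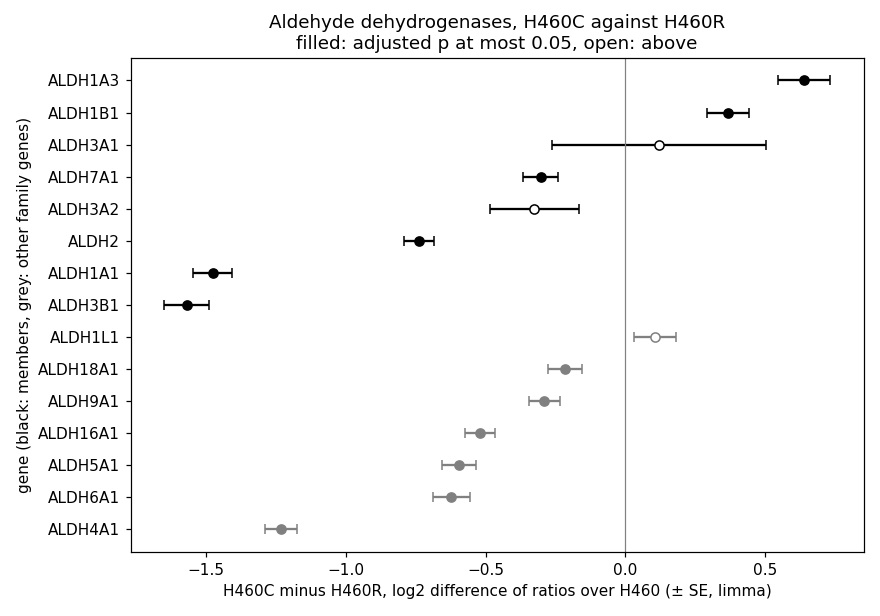
Difference of log2 ratios, H460C minus H460R (horizontal axis), with the standard error from limma as bars, for the 8 tested members in black and 7 other aldehyde dehydrogenases in grey. Filled points passed an adjusted p of 0.05 and open points did not. ALDH3B1 at -1.57 and ALDH1A1 at -1.475 lie furthest to the left, ALDH1A3 at 0.64 furthest to the right, and ALDH4A1 at -1.23 is the lowest of the other genes.

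The remaining family gave 8 genes on the array of 10 listed, of which 7 were tested. Rank Products called 0 of them in H460C and 0 in H460R. ALDH4A1 had an unadjusted p of 0.0407 in H460C by the exact rank distribution, taken only in the direction of its mean. By limma 6 were lower in H460C than in H460R and 0 higher, where 27.9% of gene names were lower. ALDH4A1, a mitochondrial enzyme of proline breakdown, was at -0.64 in H460C and 0.59 ± 0.041 (SD, n = 2) in H460R, with a difference of -1.23 ± 0.057 (SE) and an adjusted p of 0.000121 (limma). Its other 2 probes gave smaller differences of -0.36 (adjusted p = 0.0215) and -0.16 (adjusted p = 0.0534). ALDH9A1, which acts in carnitine synthesis, was at 0.30 in H460C and 0.59 ± 0.022 (SD, n = 2) in H460R, with an adjusted p of 0.00884 for the difference. The median ratio of these 7 genes was -0.30 in H460C and 0.13 in H460R.

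Genes that act before and after the retinaldehyde dehydrogenases were read from a list of 20, with 18 on the array and 13 tested. Retinol is oxidized to retinaldehyde by retinol dehydrogenases, retinaldehyde to retinoic acid by ALDH1A enzymes, and retinoic acid is bound by CRABP proteins and RAR and RXR receptors and removed by CYP26 enzymes. DHRS3, a reductase that returns retinaldehyde to retinol, was the 1 gene called in H460C and it was lower, with both samples at -3.16 and -3.46 and a mean of -3.31 (FDR = 0.0036, Rank Products). In H460R it was at -0.28 ± 0.11 (SD, n = 2), and the difference of -3.03 ± 0.12 (SE) had an adjusted p of 8.7e-05 (limma). RARA, a retinoic acid receptor, was at -0.82 in H460C and -0.97 ± 0.038 (SD, n = 2) in H460R, with an adjusted p of 0.0875 for the difference (limma). The size varied with the dye. In H460C RARA was at -1.33 and -1.34 in Cy3 and -0.37 and -0.25 in Cy5. In H460R RARA was at -1.35 and -1.40 in Cy3 and -0.53 and -0.59 in Cy5. Its other probe gave 0.005 in H460C and -0.15 in H460R, so that both probes of RARA disagree. Rank Products called 0 of the 13 genes in H460R, and by limma 4 were higher and 3 lower in H460C than in H460R, a count of 7 of 13 that is near the 55.9% of all gene names.

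Further retinoid genes were picked out after their values were seen. CYP26B1, which degrades retinoic acid, was at 1.25 in H460C and -0.04 in H460R, with a difference of 1.28 ± 0.088 (SE) and an adjusted p of 0.000323 (limma). Its other probe was well above background in 0 of 16 channels and was not tested, so that these values rest on 1 probe. RDH11, a retinol dehydrogenase by name, was at 1.12 in H460C and 0.22 in H460R (adjusted p = 0.000253 for the difference, limma). The direction of its reaction was not measured. RARB, a receptor gene that retinoic acid is known to induce, was well above background on 1 of 4 H460C channels and on all 4 H460R channels. The H460 channel was well above background on all 4 arrays of each population. The RARB ratios on the H460C arrays were -1.66, -0.56, -1.46 and -1.59. Their size is therefore limited by H460C signals that were mostly near background. Ratios on the H460R arrays ran from -0.20 to 0.27. RARB is among the genes counted above as lower in H460C than in H460R (adjusted p = 0.00143, limma), a result with the same limit. Neither CYP26B1, RDH11 nor RARB was called by Rank Products.

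**Figure D3:**
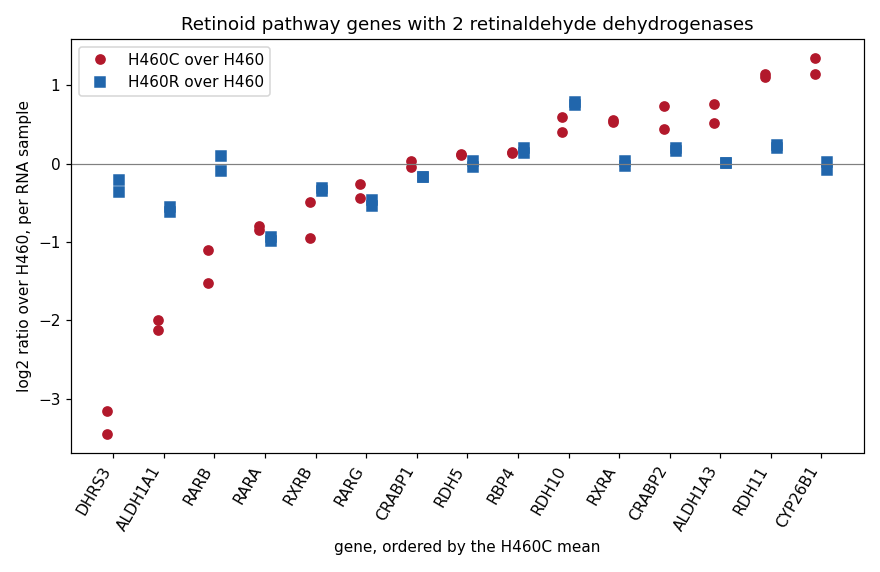
Log2 ratio over H460 (vertical axis) of 13 tested retinoid pathway genes, ALDH1A1 and ALDH1A3, ordered by their mean in H460C, with a point for each RNA sample of H460C (red circles) and H460R (blue squares). DHRS3 at -3.31 and ALDH1A1 at -2.07 are the lowest means in H460C, and CYP26B1 at 1.25 is the highest.

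The pattern of ALDH3B1 was set beside those of 11439 other named genes with a ratio on all 8 arrays. By Euclidean distance over the 8 log2 ratios the nearest was JUP, the junction protein plakoglobin, at 0.434, where the median gene was at 3.11. JUP was at -1.27 in H460C and 0.45 in H460R. SGSH, a lysosomal sulfatase of heparan sulfate, followed at 0.539, and then MARK4, a microtubule affinity kinase, at 0.637, PLCD3, a phospholipase C, at 0.655 and SPATA20 at 0.680. Each of these genes had lower ratios in Cy5 than in Cy3 on the arrays of every sample, as ALDH3B1 did, so the likeness covers the dye difference too.

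**Figure D4:**
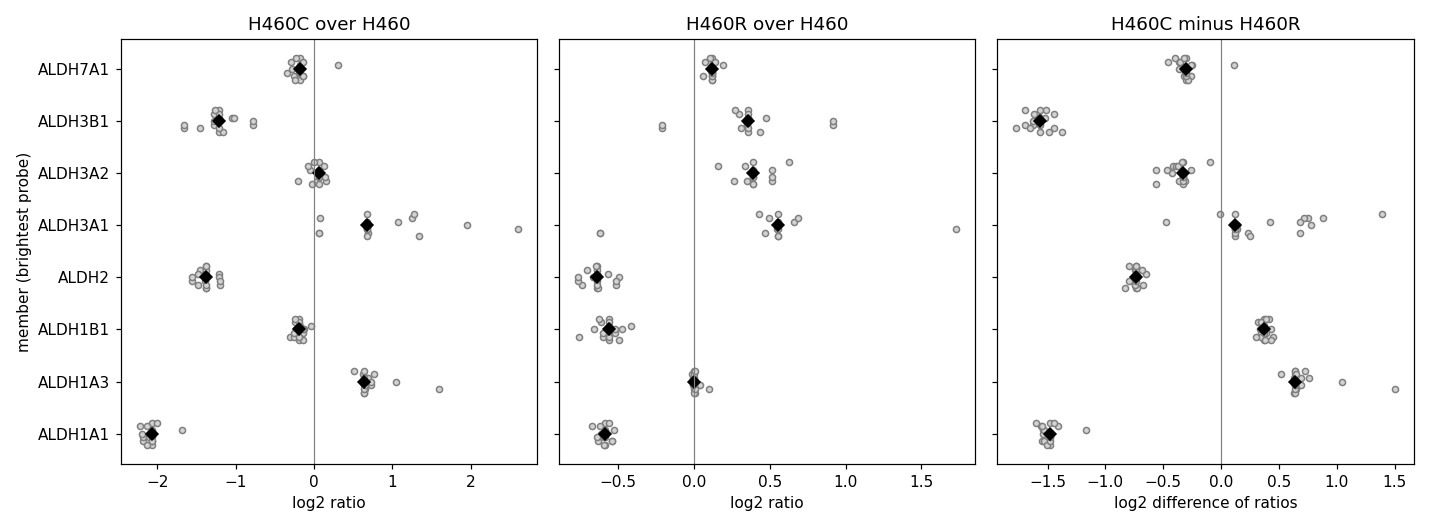
Log2 ratio over H460 in H460C and H460R, and log2 difference of H460C minus H460R (horizontal axes), of the brightest probe of each tested member. The black diamond is the value reported and each grey point an alternative processing, test or left-out sample. ALDH1A1 stays between -2.22 and -1.69 in H460C, whereas ALDH3A1 covers -0.48 to 1.39 in the difference.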

How the data were processed

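The authors scanned dual-color Agilent whole genome arrays and read the spots by Feature Extraction 10.1.1.1. Use was made of deposited median spot and local background intensities, the software's log10 ratio, its marks for outlier, saturated and well above background spots, and the authors' processed table, whose log2 ratios followed the scanner ratios at r = 0.949 to 0.997 per array, with the studied cells over H460. The centring of that table is not stated, and its column medians were -0.02 to 0. The log10 ratios of 1 array were deposited without decimal points, as scores that were divided back to log10 ratios. The labels name limma without a version. The arrays' number limits the precision, and all columns of values belonged to a sample.

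Intensities were corrected with normexp (offset 50), controls and spots with outlier marks were removed, and each array was normalized by loess. Ratios were turned to the studied cells over H460, spots were averaged per probe and both arrays of a dye swap were averaged to a sample, or 1 array was used where the other spot was removed. A probe was tested where it was well above background, in at least 0.5 of its spots, on every array of H460C, H460R or H460. The test the methods name, Rank Products, was run with exact rank distributions and Benjamini-Hochberg adjustment over 26014 probes (FDR 0.05). Increases and decreases were tested and adjusted separately. Limma 3.58.1 in R 4.3.3 compared H460C with H460R over the 4 sample ratios (2 residual and 3.27 prior degrees of freedom). It took both H460C ratios as 2 samples. Both tests were tested on simulated data. For genes with several probes the brightest one was taken.

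RefSeq (GRCh38.p14) gave the symbols of 23958 of 25074 probes with a RefSeq accession. Named were all members, list genes called by Rank Products and, where fewer than 2 of a list were called, its 2 genes with the largest mean ratio. The members and lists were chosen with earlier results of these data known. Other backgrounds, normalizations, filters, single dye orientations, tests and left-out samples were tried.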

Additional observations from a re-analysis of the deposited data

Results flagged for a closer look

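The ratios over H460 of these genes differed between H460C and H460R by the limma test of the difference itself (adjusted p at or under 0.05), and the slide cannot be told apart from the population in any of them. Among members, the log2 difference of H460C minus H460R was -1.475 for ALDH1A1, 0.6382 for ALDH1A3, 0.3666 for ALDH1B1, -0.7368 for ALDH2, -1.568 for ALDH3B1 and -0.3034 for ALDH7A1. ALDH3B1 and ALDH7A1 had means below 0 in H460C and above 0 in H460R, none of them called by Rank Products. These sides were not fixed. The ALDH3B1 mean in H460R was -0.2118 on the Cy5 arrays alone, and the ALDH7A1 mean in H460C was 0.3066 with median centring. ALDH1A1, ALDH2 and ALDH1B1 were below 0 in both populations. Of the genes named from the lists, the difference was -1.231 for ALDH4A1, -0.2896 for ALDH9A1, -3.027 for DHRS3 and -0.7584 for AKR1A1.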

How the results depend on the processing

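Among members, 1 was called in H460C by Rank Products. The count was 0 with the Feature Extraction log ratio, with a normexp offset of 0, with median centring and with the Cy3 arrays alone, where 5 members could be tested and ALDH1A1 could not. It was 2 with limma and a minimum log2 ratio of 1, 6 with limma against 0 and 2 on the Cy3 arrays with the outlier spots kept (ALDH1A1 and ALDH3A1). Settings with outlier spots kept were chosen after seeing the data, and one of them left out the H460C array of replicate 1 in Cy5, whose ratios followed the authors' table least (r = 0.949), with 1 call in H460C, 0 in H460R and 7 in the difference. In H460R the count of 0 became 5 with limma against 0. Leaving out 1 sample needs limma with the remaining sample assumed to vary like the other population, so that no counts are given for it. In the main processing 71.0% of all gene names passed limma against 0 in H460C, 68.9% in H460R and 55.9% in the difference. Shares of all gene names under the other settings were not counted, so the limma counts of members there have no background beside them. The difference counted 6 members, and 2 with a minimum of 1 (ALDH1A1 and ALDH3B1). It counted 4 of 7 tested on the Cy5 arrays alone (4 of 8 with outlier spots kept), 5 with median centring, 5 of 7 with the stricter filter, 5 of 5 on the Cy3 arrays alone, 7 with outlier spots kept and 8 with the authors' table. With the replicate number as a block it counted 6. The numbers do not pair the samples by the labels (replicate 1 minus 2 correlated at r = 0.206 between populations, from 2 pairs). Directions turned only for small or dye-dependent ratios. In H460C ALDH3A2 turned to -0.0523 with median centring, -0.08 with the authors' table, -0.0013 without replicate 2 (0.1311 without replicate 1), -0.0294 with outlier spots kept and -0.21 with these on the Cy5 arrays, and ALDH7A1 to 0.31 with median centring. In H460R ALDH1A3 turned to -0.0034 with median centring, -0.0125 with the authors' table and -0.003 on the Cy3 arrays (-0.0032 with outlier spots kept). ALDH3A1 turned to -0.6167 and ALDH3B1 to -0.2118 on the Cy5 arrays (-0.617 and -0.2118 with outlier spots kept). In the difference ALDH7A1 turned to 0.11 with median centring, and ALDH3A1 to -0.48 without H460C replicate 1 (0.72 without H460C replicate 2) and to -0.0082 without H460R replicate 1, whereas the highest value over all alternatives was 1.39. Of 441 values of single members under the alternatives, 366 kept their direction and side of the threshold. Dim spots limit ALDH1A2, which had no ratio, and ALDH1A3. The cause of these shifts was not tested.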

Other observations

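The list of alcohol dehydrogenases and AKR1A1 had 7 of 8 genes on the array and 3 tested, and Rank Products called 0 of them in H460C and 0 in H460R. AKR1A1, an aldehyde reductase, was at 0.02 in H460C and 0.78 ± 0.020 (SD, n = 2) in H460R, with a difference of -0.76 ± 0.055 (SE) and an adjusted p of 0.000368 (limma), and its other probe gave -0.61 (adjusted p = 0.000686). ADH5, which oxidizes formaldehyde bound to glutathione, was at -0.19 in H460C and -0.30 in H460R, with an adjusted p of 0.178 for the difference. Its other 2 probes gave -0.41 and -0.49 in H460C and -0.60 and -0.56 in H460R.

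Of the surface markers used for stem-like cells, CD44 was at -0.72 in H460C and -0.14 in H460R, with an adjusted p of 0.00113 for the difference (limma). ALCAM was at -0.23 in H460C and 1.32 in H460R by its brighter probe (adjusted p = 7.7e-05 for the difference) and at -0.19 and 0.34 by the other (adjusted p = 0.00293). ABCG2, a drug efflux pump, was at -0.28 and 0.22 (adjusted p = 0.00425). By Rank Products, 0 of these 3 genes were called in H460C and 0 in H460R. The epithelial markers had ratios on both sides of 0 in H460C. KRT8 was at 0.12, KRT18 at 0.13, KRT19 at -1.15 and EPCAM at 1.36 in H460C by the brightest probe of each. In H460R they were at -0.13, -0.71, -0.29 and -0.09. The other KRT8 probe gave 0.01 in H460C and 0.08 in H460R. Other KRT18 probes gave -0.13 and -0.03 in H460C and -0.83 and -0.84 in H460R. For KRT19 the sign in H460R changed with the dye, at 0.60 and 0.70 in Cy3 and -1.20 and -1.24 in Cy5. By Rank Products 0 of these 4 genes were called in H460C and 0 in H460R.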
